A study of Mus musculus with 54 samples.

Results

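Cd24a, Ppp1r1c and Pitpnc1 are 3 of the 55354 mouse genes counted in laser-captured motor neurons, and all 3 were lower in spinal motor neurons of mSOD mice at postnatal day 56 (P56). They are Ensembl genes ENSMUSG00000047139, ENSMUSG00000034683 and ENSMUSG00000040430. They were chosen by their fitted mSOD minus wild-type difference in those neurons, from the 42 genes that were lower with an adjusted p under 0.05, where Pitpnc1 ranked 2, Cd24a 3 and Ppp1r1c 5 by p-value. That comparison chose the genes, so its values are given below as a description with no test. All 3 genes passed the filter on low counts. For scale, 0.227% of the 18493 genes tested were lower at that threshold and 0.541% differed in either direction. Mmp9 was the gene just inside it (log2 difference -1.20, adjusted p 0.0487 by edgeR's quasi-likelihood test with Benjamini-Hochberg adjustment) and Snrpn the gene just outside (-0.75, adjusted p 0.0552).

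The study asked how motor neurons that differ in their vulnerability to amyotrophic lateral sclerosis change before and during disease. Laser capture took motor neurons of the lumbar spinal cord (SC) and of 3 cranial sites: the oculomotor and trochlear nuclei, which serve eye movement and are written CN3/4, the vagus nucleus, written CN10, and the hypoglossal nucleus of the tongue, written CN12. The mice were mSOD animals, which carried the human SOD1G93A transgene, or wild-type (wt) littermates without it, at P56 (presymptomatic) or P112 (symptomatic), so that 54 libraries formed 16 groups of 3 to 5. Each group was 1 combination of nucleus, age and genotype: SC P56 wt, SC P56 mSOD and SC P112 wt had 5 libraries and every other group had 3. The promoter of the transgene, the strain and the sex of the mice are not given in the sources used here. The replicates are called biological, but nothing ties a library to 1 animal, so p-values measure only the spread between these libraries.

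Depth ranged from 1071477 to 8877994 counts per library. The share of human SOD1 reads was at least 3.95% (up to 7.94%) with the transgene (26 libraries) and at most 0.00459% without it (28 libraries), in keeping with every label. Of 8 motor neuron markers, all had counts in every SC and CN12 group, and Mnx1 alone was at 0 in 5 of the CN3/4 and CN10 groups. Library names start with 1 of 3 codes (P6362, P10814, P11355), called projects here; what the codes stand for is not given in the sources used here. Project P6362 held 12 libraries, all SC and of low depth (1071477 to 3503579 counts). It supplied all 5 SC P56 mSOD libraries but 3 of the 5 SC P56 wt libraries. The cranial libraries were split by age between P11355 (P56) and P10814 (P112), with CN12 P112 mSOD replicate 3 as the exception (P11355).

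Cd24a encodes CD24, a short, heavily glycosylated protein held on the outer face of the plasma membrane by a lipid anchor. It takes part in cell adhesion, binds the neural adhesion molecule L1CAM and, on immune cells, the inhibitory receptor Siglec-G, and it is known in the nervous system from young neurons and from ependymal cells. Ppp1r1c encodes a small inhibitor of protein phosphatase 1 (PP1), the enzyme that removes phosphate from serine and threonine in many proteins, and belongs to the same family as inhibitor-1 (Ppp1r1a) and DARPP-32 (Ppp1r1b). Pitpnc1 encodes a soluble phosphatidylinositol transfer protein, which carries phosphatidylinositol or phosphatidic acid between membranes and thereby serves the supply of lipids for phosphoinositide signalling. In bulk samples such as these, fewer cells of a type and less RNA per cell cannot be told apart.

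The promoters of Ppp1r1c and Pitpnc1 are shown because both genes were lower in the same spinal libraries and had like patterns over the 16 groups (given at the end). The sequences are the 250 bases before the start of transcription in RefSeq (build GRCm38.p6), 5′ to 3′ on the gene's strand, and capitals mark every TAAT, the core that many homeodomain factors recognise, and every CCAAT, on either strand (ATTA and ATTGG on the other strand). The reads were aligned to GRCm39 per the submitters' processing notes, so the positions serve only to name the windows. The Ppp1r1c window is chr2:79707530-79707779 on the plus strand and the Pitpnc1 window is chr11:107470721-107470970 on the minus strand. Cd24a had no entry.
Ppp1r1c: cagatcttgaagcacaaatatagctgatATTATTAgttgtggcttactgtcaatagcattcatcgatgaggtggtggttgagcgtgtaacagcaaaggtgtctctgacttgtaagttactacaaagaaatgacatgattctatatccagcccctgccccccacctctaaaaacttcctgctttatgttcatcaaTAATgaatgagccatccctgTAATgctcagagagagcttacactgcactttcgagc
Pitpnc1: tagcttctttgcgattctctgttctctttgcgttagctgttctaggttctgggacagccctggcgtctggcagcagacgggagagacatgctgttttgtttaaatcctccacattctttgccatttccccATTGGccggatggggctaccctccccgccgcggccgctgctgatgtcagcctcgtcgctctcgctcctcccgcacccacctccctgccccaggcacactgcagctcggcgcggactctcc

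The windows differed in composition. The Ppp1r1c window was 42.0% G and C with 3 CG pairs, and the Pitpnc1 window was 60.4% G and C with 16 CG pairs, against a median of 52.4% G and C over the 32851 windows of the same length in the table. TAAT occurred 4 times in the Ppp1r1c window, where the first pair overlaps by 1 base, and was not in the Pitpnc1 window. It was found in 54.9% of all windows. CCAAT occurred once in the Pitpnc1 window, at 120 bases before the start, and was found in 33.8% of all windows. Neither window held TATAAA (12.4% of all windows), GGGCGG (32.7%), CACGTG (6.02%) or TGACGTCA (1.55%). These are matches of letters, not sites.

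Levels are given as CPM, counts scaled to a common library size after TMM normalization. Cd24a was the most abundant of the 3 genes in SC, and its level followed the nucleus: highest in SC, intermediate in CN10 and CN12, and lowest in CN3/4. In wt SC the 10 libraries had a median of 787 CPM (319 to 1123.8). The 6 wt CN10 libraries had a median of 194 CPM (179 to 297) and the 6 wt CN12 libraries 220.4 CPM (170.4 to 277). The 6 wt CN3/4 libraries had a median of 53.1 CPM (25.7 to 73.5). No wt CN3/4 library reached the lowest wt library of any other nucleus, and the lowest wt SC library stood above all wt CN10 and CN12 libraries.

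**Figure D1:**
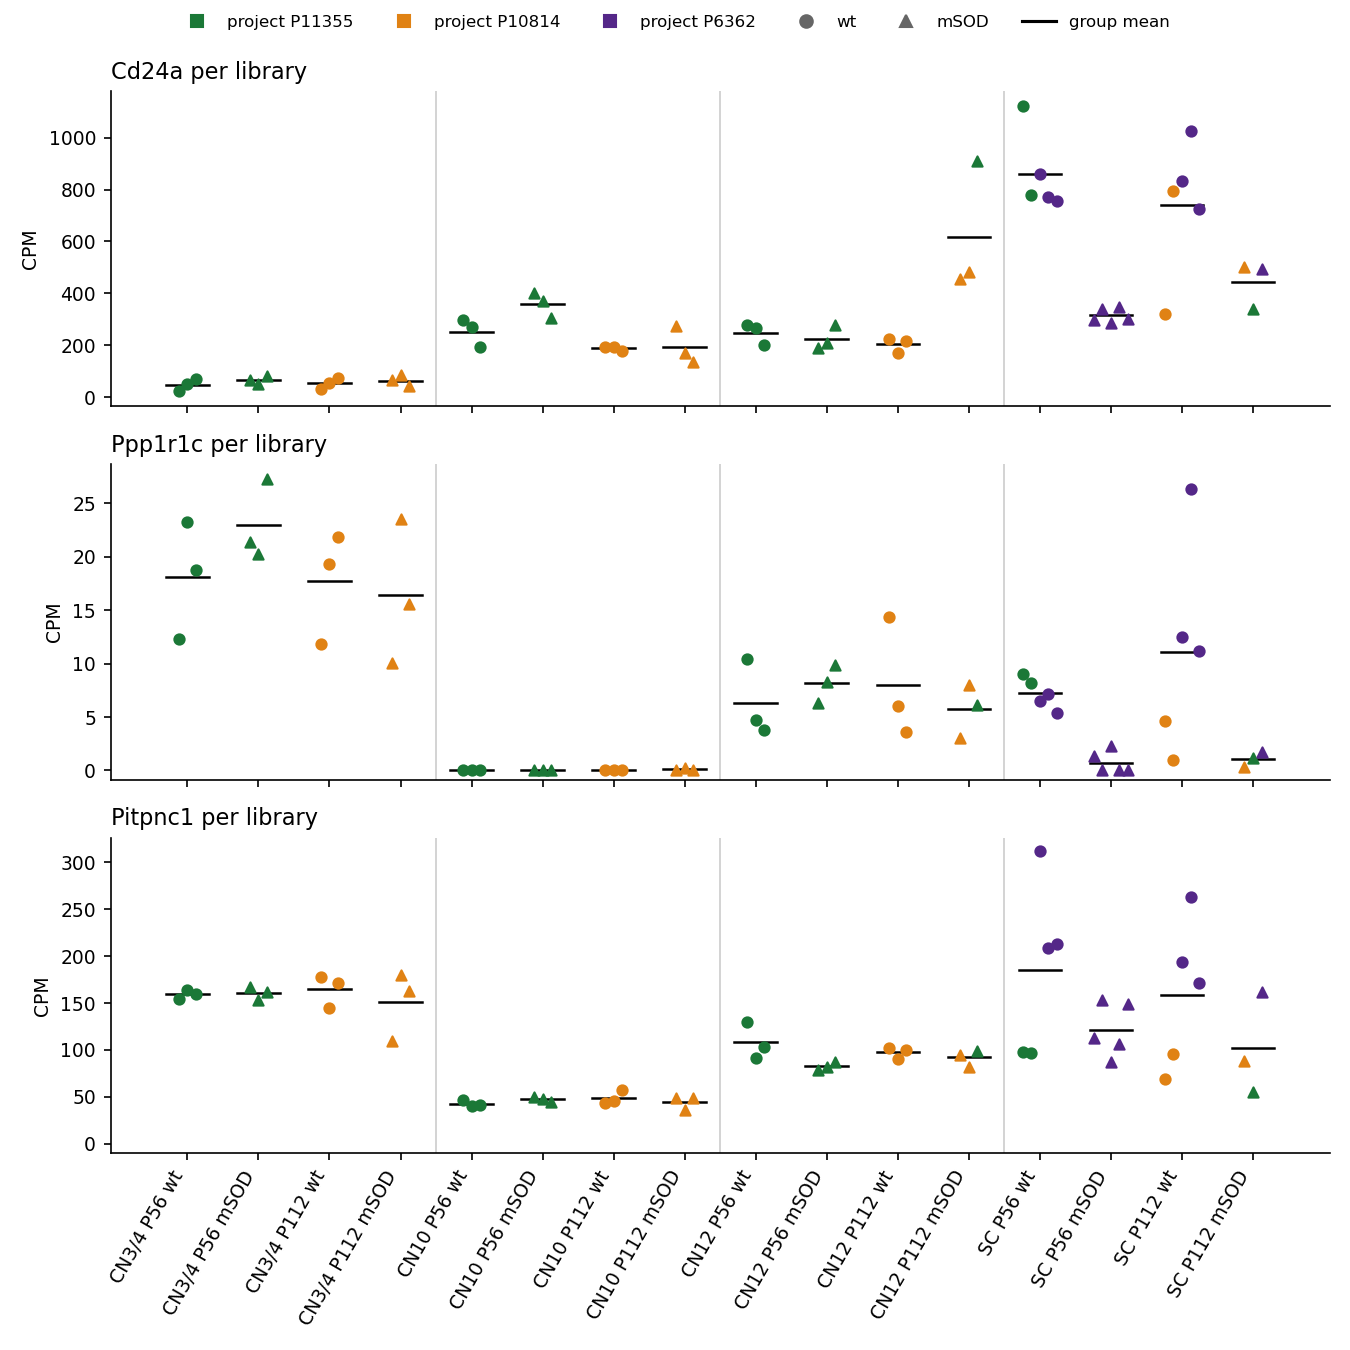
CPM of Cd24a, Ppp1r1c and Pitpnc1 in each of the 54 libraries (points, coloured by project; circles wt, triangles mSOD) over the 16 groups, with group means as horizontal lines on linear axes. Cd24a is highest in wt SC, Ppp1r1c is absent or nearly so in CN10, and the SC libraries of Pitpnc1 separate by project.

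Cd24a was lower in all 5 mSOD SC libraries at P56. The wt libraries held 1123.8 and 779 CPM in project P11355 and 862, 771 and 758 CPM in P6362, a mean of 859 ± 154 (SD, n = 5). The mSOD libraries held 298, 339, 287, 349 and 303 CPM, a mean of 315 ± 27.0 (SD, n = 5). The groups were far apart: the highest mSOD library was below every wt library, as for 1.57% of all genes tested (lower, no overlap). The fitted log2 difference was -1.41 (SE 0.26). It was -1.34 (SE 0.12) within P6362 alone and -1.35 (SE 0.25) without the highest wt library.

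At P112, Cd24a in SC was less clearly separated. The 5 wt libraries held 319 and 795 CPM in P10814 and 834, 1025 and 726 CPM in P6362, and the mSOD libraries held 501 CPM (P10814), 339 CPM (P11355) and 492 CPM (P6362). The lowest wt library lay below every mSOD library, so the groups overlapped, while 4 of 5 wt libraries lay above all 3 mSOD libraries. The log2 difference was -0.72 (SE 0.28, 95% interval -1.29 to -0.15) and did not pass the test (adjusted p 0.333, edgeR quasi-likelihood with Benjamini-Hochberg adjustment; 0.0503 to 1.0 over the alternatives). In P6362 the mSOD library was below all 3 wt libraries (29.2% of all genes), and in P10814 it lay between the 2 wt libraries.

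In CN12 the genotypes were the other way round at P112. The wt libraries held 223, 170.4 and 218 CPM of Cd24a and the mSOD libraries 455, 484 and 911 CPM, the last being the library from project P11355. All 3 mSOD libraries were above all 3 wt libraries, as for 4.82% of all genes tested (higher, no overlap). The log2 difference was 1.37 (SE 0.32, 95% interval 0.72 to 2.02) and missed the threshold (adjusted p 0.0928, edgeR quasi-likelihood with Benjamini-Hochberg adjustment; 0.000175 to 0.639 over the alternatives). In this comparison 0.0703% of genes passed the test, all higher. It passed without the low-count filter, without the project term, in DESeq2 and in a fit of these groups alone, and in none of the 6 fits that left out 1 library.

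The genotype difference of Cd24a at P112 was itself compared between nuclei. SC minus CN12 was -2.09 on the log2 scale (SE 0.42, adjusted p 0.0306 by edgeR's quasi-likelihood test with Benjamini-Hochberg adjustment), and 0.0487% of genes passed this test. The adjusted p ranged from 4.12e-06 to 1.0 over the alternatives. The call was lost within P10814 (-1.36, adjusted p 1.0), where 1 mSOD SC library remained, in a fit of the compared groups alone (adjusted p 0.157), and on leaving out any of 7 of the 14 libraries. Those were CN12 wt replicate 1 (adjusted p 0.0963), CN12 wt replicate 2 (0.116), CN12 mSOD replicate 1 (0.06), CN12 mSOD replicate 3 (0.112), SC wt replicate 2 (0.167), SC mSOD replicate 2 (0.237) and SC mSOD replicate 3 (0.265), all by the same edgeR test. The difference between SC and CN3/4 was -0.99 (SE 0.42, adjusted p 0.607) and that between SC and CN10 was -0.76 (SE 0.41, adjusted p 0.772), neither past the edgeR test. The 3 differences share the SC libraries.

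In the other cranial groups Cd24a did not pass the genotype test. In CN12 at P56 the wt libraries held 277, 265 and 200.1 CPM and the mSOD libraries 191, 208 and 279 CPM, which overlap. In CN10 at P56 the wt libraries held 297, 269 and 193 CPM and the mSOD libraries 402, 369.7 and 307 CPM. Here all 3 mSOD libraries were higher in CPM, with a log2 difference of 0.51 (SE 0.30, adjusted p 0.45, edgeR). In this comparison 7.62% of all genes were higher without overlap. In the authors' RPKM (reads scaled by gene length and library size) mSOD replicate 3 (206.4) lay just below wt replicate 1 (208.7). In CN10 at P112 the wt libraries held 194, 193 and 179 CPM, inside the mSOD values of 275, 172 and 134 CPM. In CN3/4 the 6 mSOD libraries spanned 41.7 to 85.9 CPM and the 6 wt libraries 25.7 to 73.5 CPM, with log2 differences of 0.46 (SE 0.31) at P56 and 0.27 (SE 0.31) at P112.

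The wt level of Cd24a at P112 was tested between nuclei on libraries that did not enter the choice of genes. The fit shared its project term and spread with the SC P56 libraries, which did enter it. Cd24a was lower in CN10 than in SC by a log2 difference of -1.68 (SE 0.32, adjusted p 5.08e-05, edgeR quasi-likelihood with Benjamini-Hochberg adjustment), in a comparison where 22.2% of genes passed. It was lower in CN12 than in SC by -1.57 (SE 0.32, adjusted p 0.00367 by the same edgeR test), where 0.643% of genes passed. That call was lost within P10814 (adjusted p 0.0519), without CN12 wt replicate 2 (0.0503) and without SC wt replicate 2 (0.146). For CN3/4 the log2 difference was -3.51 (SE 0.34), given as a description because this contrast was known when the genes were chosen.

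Cd24a has near copies in the mouse genome. A processed pseudogene, Gm6212, matched Cd24a transcripts over 218 bases at 96.8% identity, and Gm15352 over 259 bases at 92.3%. Gm6212 held 367 counts and Gm15352 6 counts in all 54 libraries together, against 66759 for Cd24a. How reads that fit more than 1 place were counted is not given in the sources used here.

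Ppp1r1c was a low-count gene, and in SC it was at or near 0 in mSOD libraries at both ages. At P56 the wt libraries held 8.99, 8.16, 6.49, 7.13 and 5.37 CPM (12 to 37 counts), a mean of 7.23 ± 1.41 (SD, n = 5). The mSOD libraries held 1.32, 0, 2.25, 0 and 0 CPM (0 to 4 counts), a mean of 0.714 ± 1.03 (SD, n = 5). In CPM every mSOD library was below every wt library, as for 1.57% of all genes tested (lower, no overlap). In the authors' RPKM the groups overlapped: mSOD replicate 3 (2.54) lay above wt replicate 3 (2.275) and wt replicate 5 (2.386). A count of 0 in the 3 mSOD libraries allows up to 0.89 to 1.09 CPM, a limit that covers counting error only. The fitted log2 difference was -3.78 (SE 0.73), and -3.34 (SE 0.81) within P6362.

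At P112, in libraries the choice of genes had not used, Ppp1r1c was again lower in mSOD SC. The wt libraries held 4.65 and 0.949 CPM (15 and 4 counts) in P10814 and 12.5, 26.4 and 11.2 CPM (14, 85 and 24 counts) in P6362. The mSOD libraries held 0.281 CPM (1 count, P10814), 1.16 CPM (5 counts, P11355) and 1.69 CPM (5 counts, P6362). Within P6362 and within P10814 the mSOD library lay below all wt libraries of the same project, as for 29.2% and 32.8% of all genes, since each project held 1 mSOD library. Only wt replicate 2 overlapped the mSOD range of the pooled libraries.

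The log2 difference at P112 was -3.27 (SE 0.74) and passed the test (adjusted p 0.0216, edgeR quasi-likelihood with Benjamini-Hochberg adjustment), with 0.276% of genes lower and 0.47% called in either direction. This test is not fully separate from the choice of genes. Its project term and spread were also fitted on the SC P56 libraries. The ratio of mean CPM, wt over mSOD, was 10.7 over all libraries and 7.003 without wt replicate 4, and it was 9.88 within P6362 and 7.001 there without that library, all computed after the data were seen. No ratio is given for P10814, whose mSOD library had 1 count. Over all alternatives the log2 difference ranged from -3.59 to -2.83 and the adjusted p from 0.000198 to 0.9. The call was lost in a fit of the compared groups alone (adjusted p 0.247), within P6362 (0.191) and within P10814 (0.9), where 1 mSOD library remained in each project. It was also lost without mSOD replicate 1 (0.057), mSOD replicate 2 (0.0907), mSOD replicate 3 (0.257) or wt replicate 4 (0.0779) in the edgeR fit.

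**Figure D2:**
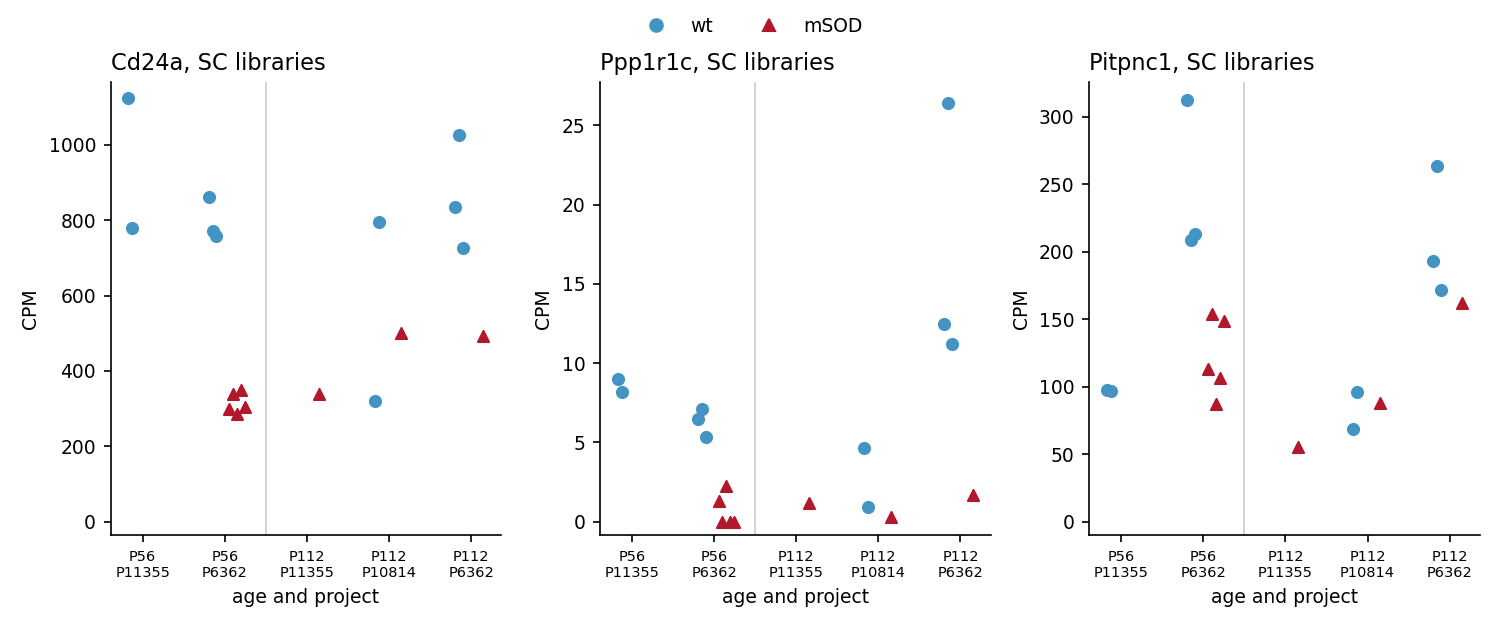
CPM of each gene in the 18 SC libraries, split by age and project, with wt as circles and mSOD as triangles (linear axes). Each gene is lower in the mSOD libraries of P6362 than in its wt libraries at both ages, with 1 mSOD library there at P112. The wt values of Pitpnc1 are higher in P6362 than in the other projects.

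Across nuclei, Ppp1r1c had its highest median in CN3/4 and was close to absent in CN10. The 10 wt SC libraries held 0.949 to 26.4 CPM (median 7.645), so the highest of them overlapped the CN3/4 range. The 12 CN3/4 libraries held 10.1 to 27.3 CPM (median 19.8) and the 12 CN12 libraries 3.08 to 14.4 CPM (median 6.21). In CN10, 11 of 12 libraries had no count and P112 mSOD replicate 2 had 1 count. A count of 0 allows up to 0.445 to 0.967 CPM in those 11 libraries. Every CN3/4 and CN12 library was above these limits.

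In wt at P112, Ppp1r1c was at least 15.5-fold lower in CN10 than in SC, computed against 3 counts in each CN10 library (adjusted p 0.000117, edgeR quasi-likelihood with Benjamini-Hochberg adjustment; 22.2% of genes passed). The SC libraries of P6362 held the higher levels and all 3 CN10 wt libraries were from P10814. Within P10814 the lower bound was 3.90-fold (adjusted p 0.00137 by the same edgeR test), and without SC wt replicate 4 it was 10.2-fold, both computed after the data were seen. In CN3/4 the level was 11.9, 19.3 and 21.9 CPM, and the fitted difference from SC was 2.16 (SE 0.69) on the log2 scale. It missed the threshold (adjusted p 0.0581 by the same edgeR test; 0.00878 to 0.528 over the alternatives), in a comparison where 5.15% of genes passed. It passed in 4 alternatives and without SC wt replicate 4 (adjusted p 0.0299). In CN12 the wt libraries held 14.4, 6.01 and 3.62 CPM and the difference from SC was 1.02 (SE 0.69, adjusted p 0.761), with the opposite sign (-0.46) when the project term was left out.

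No genotype difference of Ppp1r1c in a cranial nucleus passed the edgeR test. In CN3/4 the wt libraries held 12.3, 23.3 and 18.8 CPM and the mSOD libraries 21.4, 20.3 and 27.3 CPM at P56, and the mSOD libraries at P112 held 10.1, 23.6 and 15.6 CPM. The log2 differences there were 0.35 (95% interval -0.79 to 1.48) and -0.10 (-1.25 to 1.04). In CN12 they were 0.35 (-0.84 to 1.54) at P56 and -0.91 (-2.18 to 0.37) at P112. Each of these groups overlapped its counterpart. All 4 intervals include changes of more than 1 log2 unit.

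Whether the P112 genotype difference of Ppp1r1c in SC differs from that in other nuclei was tested directly. SC minus CN3/4 was -3.17 (SE 0.93, 95% interval -5.06 to -1.29) with an adjusted p of 0.339 by edgeR, and 0.00541% of genes passed that test. SC minus CN12 was -2.37 (SE 0.94, adjusted p 0.689). With CN10 no fold was computed because both arms were at the floor. Neither difference passed over all genes, so the lower Ppp1r1c level is not shown to be particular to SC.

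Pitpnc1 was read at 55.1 to 313 CPM in SC, and its SC values differed by project. The 12 SC libraries of P6362 held 87.2 to 313 CPM (median 167), and the 6 SC libraries of the other projects held 55.1 to 97.3 CPM (median 91.7). Of the P6362 libraries, only SC P56 mSOD replicate 3 lay within the range of the others. The values within project are therefore given beside each SC comparison.

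At P56 the wt libraries held 97.3 and 96.8 CPM in P11355 and 313, 208 and 213 CPM in P6362. The mSOD libraries, all from P6362, held 113, 154, 87.2, 106 and 149 CPM. Pooled, the groups overlapped, because 4 of the 5 mSOD libraries lay above both wt libraries of P11355. Within P6362 the groups did not overlap, as for 4.53% of all genes tested (lower), and the ratio of mean CPM, wt over mSOD, was 2.01. The fitted log2 difference was -1.02 (SE 0.18), -1.002 (SE 0.19) within P6362, and -0.60 (SE 0.26) without the project term.

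At P112 the wt libraries held 68.6 and 95.8 CPM in P10814 and 193, 264 and 171 CPM in P6362, and the mSOD libraries 87.6 (P10814), 55.1 (P11355) and 162 CPM (P6362). In P6362 the mSOD library was below all 3 wt libraries (29.2% of all genes), and in P10814 it lay between the 2 wt libraries. The log2 difference was -0.26 (SE 0.19, 95% interval -0.65 to 0.14), did not pass the edgeR test (adjusted p 0.727) and had the opposite sign within P10814 (0.09). SC minus CN3/4, CN10 and CN12 gave -0.13, -0.12 and -0.21 for the genotype difference, none past the test (adjusted p 0.969 to 0.993).

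The cranial nuclei gave tighter values of Pitpnc1. CN3/4 libraries held 109 to 180.1 CPM (median 163), CN12 libraries 79.0 to 130.0 CPM (median 92.8) and CN10 libraries 36.1 to 57.5 CPM (median 46.2), 12 of each. Every CN10 library was below every CN12 library, and only 1 CN3/4 library, P112 mSOD replicate 1, lay within the CN12 range. In CN12 at P56 the mSOD libraries held 79.0, 81.9 and 87.1 CPM against 130.0, 91.2 and 103 CPM in wt. These groups did not overlap in CPM (6.48% of genes were lower without overlap). The log2 difference of -0.39 (SE 0.21) did not pass the edgeR test (adjusted p 0.527). In the authors' RPKM the groups overlapped, with mSOD replicate 3 (21.08) above wt replicate 2 (18.55). In the other 5 cranial comparisons the log2 difference lay between -0.14 and 0.16, the groups overlapped and none passed.

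In wt at P112 the fitted Pitpnc1 level was higher in CN3/4 than in SC by 0.94 on the log2 scale (SE 0.21, adjusted p 0.00326, edgeR quasi-likelihood with Benjamini-Hochberg adjustment). The CN3/4 libraries held 178, 145 and 171 CPM, above both SC libraries of the same project (68.6 and 95.8 CPM) and below or within the SC libraries of P6362. The difference was 1.01 (SE 0.24) within P10814 and 0.06 (adjusted p 0.939) without the project term. The call was thus not made without the project term. Pitpnc1 was lower in CN10 than in SC by -0.81 (SE 0.22, adjusted p 0.00437, edgeR), and without the low-count filter the adjusted p was 0.0618. In CN12 the difference was 0.19 (SE 0.21, adjusted p 0.899), with the opposite sign (-0.69) without the project term.

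**Figure D3:**
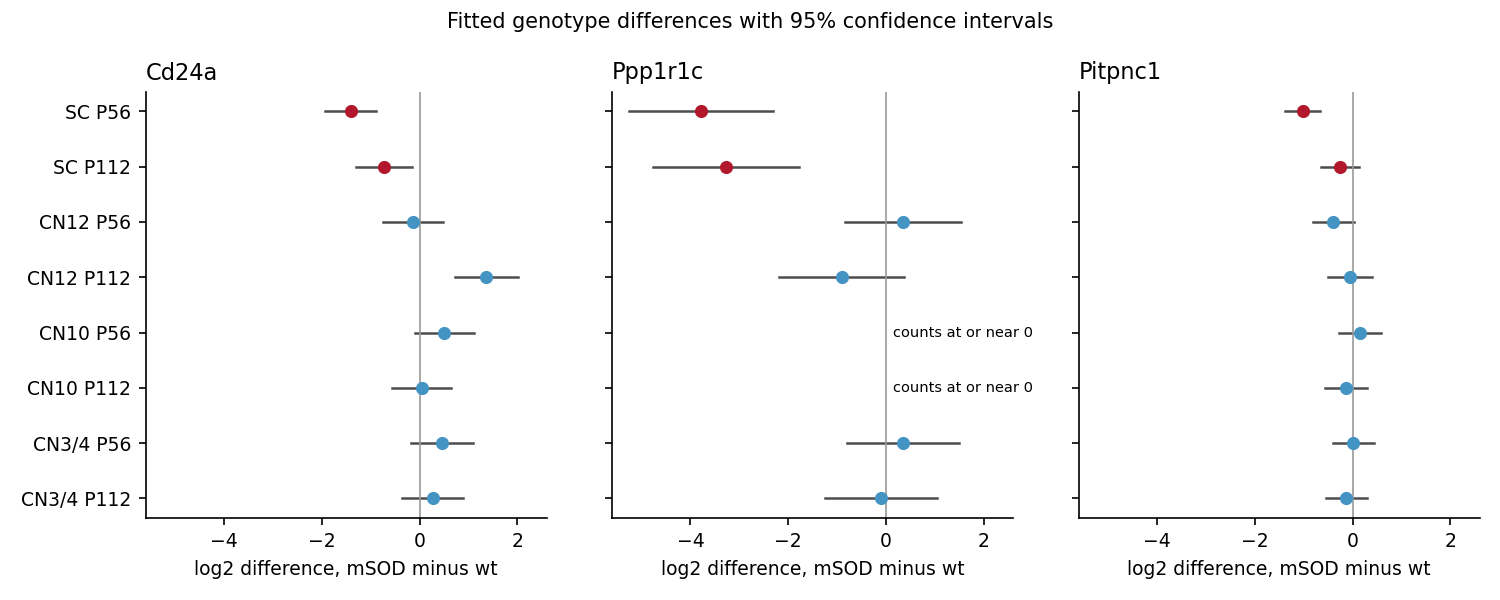
Fitted log2 difference, mSOD minus wt, of each gene in the 8 combinations of nucleus and age, with 95% confidence intervals (red SC, blue cranial nuclei). The SC P56 values chose the genes, and among the others Ppp1r1c in SC at P112 passed the test (-3.27).

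In CN3/4 at both ages and in CN10 at P112, 0.0% of all genes passed the edgeR genotype test (592, 587 and 669 genes at an unadjusted p under 0.05, and 4 genes each in DESeq2). In CN10 at P56 0.0162% passed and in CN12 at P56 0.00541%.

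Over all tests the 3 genes gave 7 calls in 35 comparisons that the choice had not used: 1 genotype difference (Ppp1r1c in SC at P112), 1 difference between nuclei in the genotype difference (Cd24a, SC minus CN12), and 5 differences between nuclei in wt. Of those 5, all 3 genes were called in CN10 minus SC, where 22.2% of all genes passed, Pitpnc1 in CN3/4 minus SC (5.15%) and Cd24a in CN12 minus SC (0.643%). The 3 comparisons with SC share the SC wt libraries, which also enter the SC genotype comparison at P112. All were made in 1 fit, whose project term and spread also drew on the SC P56 libraries that chose the genes.

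Ordered by group mean, Cd24a ran from 859 CPM in SC P56 wt to 48.7 CPM in CN3/4 P56 wt. Of 15 pairs of neighbours in that order, 14 overlapped, and the break fell between CN10 P112 wt (189 CPM) and CN3/4 P56 mSOD (66.7 CPM). The order of Ppp1r1c ran from 23.0 CPM in CN3/4 P56 mSOD to 0 in CN10, with its single break between CN12 P112 mSOD (5.73 CPM) and SC P112 mSOD (1.04 CPM). Both mSOD SC groups thus stood just above the 4 CN10 groups. The order of Pitpnc1 ran from 186 CPM in SC P56 wt to 42.7 CPM in CN10 P56 wt, with its single break between CN12 P56 mSOD (82.7 CPM) and CN10 P112 wt (49.0 CPM).

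The relatives of the 3 genes are best compared per length, in the authors' RPKM (reads scaled by gene length and library size). In wt SC, Ppp1r1c had 4.84 ± 3.53 RPKM (SD, n = 10), below Ppp1r1a (26.3 ± 8.71) and Ppp1r1b (12.8 ± 9.03). In wt CN10, where Ppp1r1c was at 0 in all 6 libraries, Ppp1r1a had 41.0 ± 6.15 RPKM. In wt CN3/4, Ppp1r1c (8.89 ± 1.35 RPKM, n = 6) was above Ppp1r1b (2.38 ± 1.67) and below Ppp1r1a (17.2 ± 8.52). Thus CN10 held the highest mean of Ppp1r1a and no detected Ppp1r1c. The deposited RPKM of Ppp1r1c was not a fixed multiple of its CPM: the ratio ran from 0.337 to 1.26 over the 32 libraries with at least 10 counts, against 0.641 to 0.785 for Cd24a.

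Among the phosphatidylinositol transfer proteins, Pitpna, which encodes the alpha form, was the most abundant in wt SC at 118 ± 38.7 RPKM (SD, n = 10). Pitpnc1 followed at 36.4 ± 16.9 RPKM, near Pitpnm1, a membrane-associated member, at 28.5 ± 16.4. Pitpnb (3.90 RPKM), Pitpnm2 (5.73) and Pitpnm3 (1.96) were lower. Cd24a had 530.3 ± 121 RPKM in wt SC, 165 ± 31.1 in wt CN10, 163 ± 22.1 in wt CN12 and 36.2 ± 13.4 in wt CN3/4 (SD, n = 6 in each cranial nucleus).

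**Figure D4:**
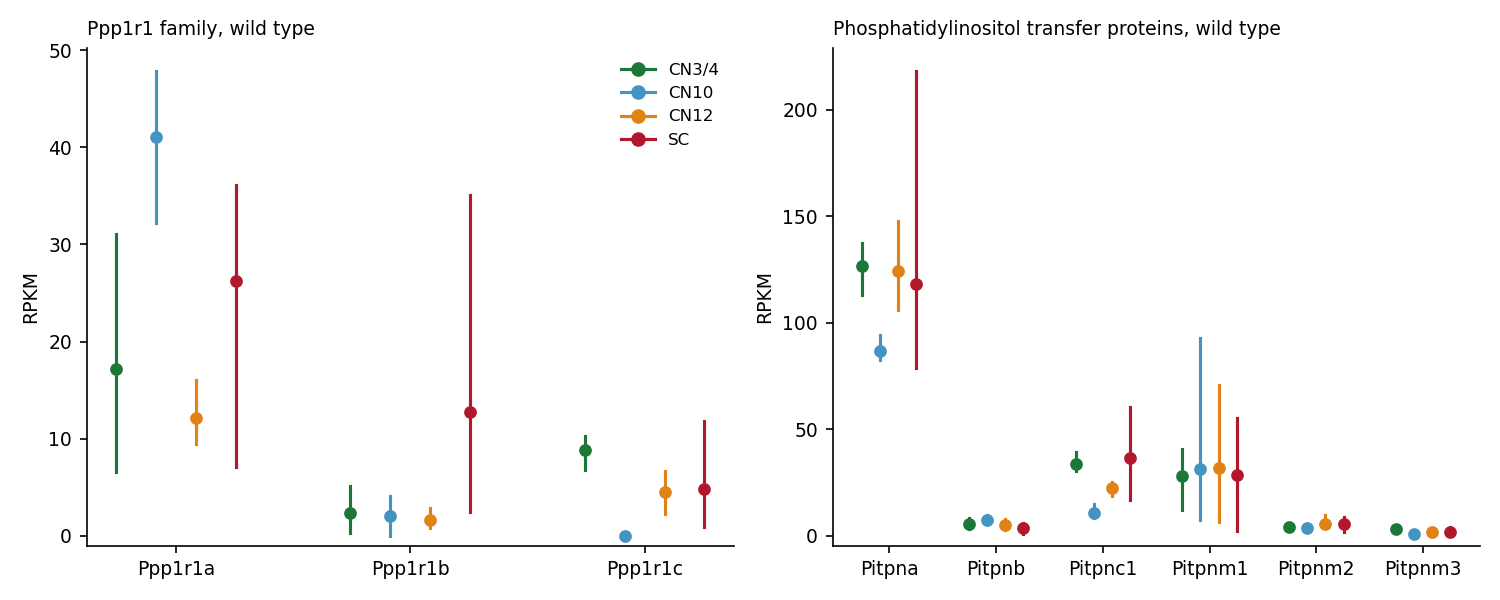
Authors' RPKM of the Ppp1r1 family (left) and the phosphatidylinositol transfer proteins (right) in wt libraries of each nucleus; points are means and bars span the lowest to the highest library (10 in SC, 6 in each other nucleus). Ppp1r1c is at 0 in CN10 and Pitpnc1 is second to Pitpna in SC.

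None of the genes listed as partners or relatives of the 3 genes passed the edgeR genotype test in SC. Of 8 listed partners of CD24 (such as L1cam and Cntn2), 5 were tested and 0 were called at either age, with a median log2 difference of 0.01 at P56 and -0.13 at P112, beside 0.05 and -0.01 over all genes. All 3 PP1 catalytic subunits were tested and 0 were called (medians 0.02 and -0.13). Of 8 PP1 inhibitors 7 were tested and 0 were called; their median was -0.38 at P56 and 0.10 at P112. The 5 other phosphatidylinositol transfer proteins gave 0 calls (medians 0.23 and 0.05). The 12 genes of phosphatidylinositol synthesis and phosphorylation also gave 0 calls (0.08 and 0.04). The same lists gave 0 calls in CN12 at P112. The lowest adjusted p over the 5 lists was 0.188 in SC at P56, for the synthesis list, and 0.353 at P112, for the CD24 partners (edgeR). At an unadjusted p under 0.05, 2 of the PP1 inhibitors, 1 transfer protein and 1 synthesis gene differed in SC at P56, and 1 CD24 partner at P112, beside 2212 of all 18493 genes at P56 and 1824 at P112.

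Markers of cell type moved with genotype in some of these comparisons. Among 5 markers of fast and alpha motor neurons, 2 fell in mSOD SC at both ages and 0 rose. Chodl was -1.52 (SE 0.36, adjusted p 0.0333) at P56 and -3.06 (SE 0.47, adjusted p 0.000263) at P112, and Mmp9 was -1.20 and -1.62 (adjusted p 0.0487 and 0.0247), all log2 differences by edgeR. The summed level of the 5 markers in SC was 3589 to 6974 CPM in wt and 1997 to 4097 CPM in mSOD at P56. At P112 the mSOD library of P6362 (1445 CPM) was below its 3 wt libraries (2402 to 3325 CPM). That of P10814 (3463 CPM) lay between its 2 wt libraries. Over all SC libraries at P112 the 5 markers overlapped, at 2152 to 3611 CPM in wt and 1445 to 3463 CPM in mSOD. In CN12 at P112, where Cd24a was higher in mSOD, their sum was 1572 to 2806 CPM in wt and 4023 to 5720 CPM in mSOD, and 0 of the 5 were called. Only 3 of the 5 had a fitted difference above 0 there (median log2 difference 0.69), and Chodl was -0.03. The 8 general motor neuron markers (such as Chat) gave 0 calls, with a summed level of 14734 to 18527 CPM in wt and 9106 to 12883 CPM in mSOD SC at P56. Most of that sum was Nefm (mean 10370 CPM in wt and 6426 in mSOD), followed by Nefh (3779.5 and 3452.7). Chat had means of 75.85 and 72.18 CPM. At P56, 2 of the 8 had a fitted difference above 0, and the median log2 difference was -0.35 (all genes 0.05). At P112, 0 of these 8 were called and 0 of 8 had a fitted difference above 0, with a median log2 difference of -0.44 (all genes -0.01) and a lowest adjusted p of 0.0949 (edgeR); 4 of 8 had an unadjusted p under 0.05. Their sum at P112 was 8143 to 16135 CPM in wt and 8568 to 8918 CPM in mSOD SC. Most of it was again Nefm (mean 7639 CPM in wt and 4859 in mSOD). In P6362 the mSOD library (8918 CPM) was below all 3 wt libraries (12260 to 16135 CPM), and in P10814 it (8820 CPM) lay between the 2 wt libraries. The part of these markers in the levels of Cd24a, Ppp1r1c and Pitpnc1 was not tested.

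Markers of other cells were also read beside the 3 genes. The 7 microglia markers summed to 1.73 to 7.72 CPM in wt and 0 to 3.86 CPM in mSOD SC at P56, and to 1.86 to 7.13 CPM in wt and 16.9 to 48.6 CPM in mSOD SC at P112. The 4 inhibitory neuron markers (Gad1, Gad2, Slc6a5 and Slc32a1) summed to 43.5 to 324 CPM in wt and 163 to 499 CPM in mSOD SC at P112. The 324 CPM was in wt replicate 1, also the lowest wt library in Cd24a (319 CPM) and motor neuron markers (8143 CPM). The other wt libraries held 43.5 to 102 CPM. The 6 astrocyte markers summed to 45.0 to 103 CPM in wt and 104 to 108 CPM in mSOD SC at P112, and the 6 oligodendrocyte markers overlapped between genotypes at both ages. No gene of these 4 lists was called in SC (edgeR). In SC at P56 the astrocyte sums (33.9 to 120.2 CPM in wt, 52.3 to 115 in mSOD) and the inhibitory neuron sums (42.4 to 225 CPM in wt, 65.5 to 294 in mSOD) overlapped over the pooled libraries. Within P6362, however, the astrocyte sums at P56 did not overlap: the wt libraries held 49.7, 33.9 and 34.0 CPM and the mSOD libraries 115, 62.0, 52.3, 83.1 and 53.3 CPM, all higher. The inhibitory neuron sums overlapped within P6362 as well. The 5 gamma motor neuron markers summed to 106 to 164 CPM in wt and 167 to 188 CPM in mSOD SC at P112, with 0 called, and overlapped at P56. Of 5 neutrophil markers, S100a8, S100a9, Camp and Ngp were at 0 in all SC libraries. Of 5 ependymal markers, Ccdc153, Tmem212 and Rarres2 were at 0 in all SC P56 libraries, while Foxj1 and Dynlrb2 had counts. The 5 summed to 3.8 to 8.6 CPM in wt and 6.9 to 12.3 CPM in mSOD SC at P56. At P112 only Tmem212 and Rarres2 were at 0, and the sums were 5.3 to 18.2 CPM in wt and 6.7 to 21.6 CPM in mSOD. The part of these markers in the values of the 3 genes at either age was not tested.

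Genes with the pattern most like each of the 3 were ranked by Pearson r of log2 CPM over the 16 group means, whose points share nuclei and projects. For Cd24a these were Gabra2, a GABA-A receptor subunit (r = 0.96), Cdhr1 (0.96), Serpinb6a (0.96), Actg1, a cytoplasmic actin (0.95), and Anxa7 (0.95). For Ppp1r1c they were Atp6ap1l (0.98), Fgf1, a growth factor (0.95), Sema3d, a secreted semaphorin (0.95), Htr3a, a serotonin receptor channel subunit (0.94), and 2310009B15Rik (0.94). For Pitpnc1 they were Col4a5, a basement membrane collagen (0.97), Nfib and Maf, transcription factors (0.97 each), Rnf144b (0.97) and Patj (0.97). With Spearman's rho, 1 of the 5 stayed among the first 5 for each gene. Between the 3 genes, r over the 16 means was 0.86 for Ppp1r1c and Pitpnc1, -0.41 for Cd24a and Ppp1r1c and -0.25 for Cd24a and Pitpnc1.

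Over the 18 SC libraries, which share depth and project, the nearest genes were others. For Cd24a they were Klc1, a kinesin light chain (0.92), Rap1gds1 (0.91), Layn (0.90), Sms, spermine synthase (0.86), and Tuba1a, an alpha tubulin (0.85). For Pitpnc1 they were Snhg10 (0.94), the pseudogenes Gm2991 (0.91) and Tmem181b-ps (0.90), Rsl24d1 (0.89) and Lrrc49 (0.89). For Ppp1r1c, which had 0 counts in 3 of these libraries, they were Nek7 (0.85), Chp1 (0.82), Gbe1, the glycogen branching enzyme (0.79), 6330403K07Rik (0.78) and 5430403G16Rik (0.77). Among the 3 genes r was 0.73 for Cd24a and Ppp1r1c, 0.52 for Cd24a and Pitpnc1 and 0.41 for Ppp1r1c and Pitpnc1. The 18 libraries include the 10 of SC P56, on which all 3 genes were chosen as lower in mSOD. The choice itself thus favours a positive r between them, and likeness to other genes that were lower there.

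Pitpnc1 overlaps 5 genes on the opposite strand in GENCODE M21 (Gm11712, Gm11713, Gm11714, Gm11716 and Gm11719). The counting is not stated to use strand, so reads from Pitpnc1 and these genes cannot be told apart. Cd24a and Ppp1r1c overlap no annotated gene there. A processed pseudogene like Pitpnc1, Gm5762, had 0 counts in all libraries.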

How the data were processed

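RNA was measured in laser-captured motor neurons with Smart-seq2 from polyadenylated RNA, per the labels' protocols. The deposited table holds whole-number counts per gene, and the second deposited table the authors' RPKM. STAR 2.7.0e and build GRCm39 (mm39) are named in the submitters' processing notes; the counting program, annotation and strand setting are not given in the sources used here. Counts of all 54 libraries were fitted once in edgeR 4.0.16 (R 4.3.3): TMM, filterByExpr on the 16 groups (18493 genes left), group means plus a project term, quasi-likelihood F tests (two-sided) and Benjamini-Hochberg adjustment over all genes. A gene was called at an adjusted p under 0.05. Human SOD1 stayed in the counts for normalization and fitting, and was left out of the results before the adjustment. Within 1 project, an arm of 1 library was assumed to vary like the other groups. Fits without 1 library kept the genes and the dispersion trend of the full fit. A count of 0 was read against 3 counts per library. Log2 CPM for pattern likeness used a prior count of 2. Near copies were transcripts of other genes in GENCODE M21 that matched at least 150 bases at 90% identity or more.

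The 3 genes and all gene lists were chosen with earlier results of these data known. Named besides them are list genes called in SC, family relatives, the 5 genes most like each in pattern, and the genes at the threshold. The alternatives were DESeq2 1.42.0, its size factors, no low-count filter, no project term, the compared groups alone, 1 project alone, and each library left out. The test was also run on simulated data with the same spread for all genes and no project effect. Only genes with higher counts were changed there. That run therefore does not cover a low-count gene such as Ppp1r1c or the split of groups by project.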

Additional observations from a re-analysis of the deposited data

Results flagged for a closer look

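Cd24a in SC P56 wt replicate 1 (1123.8 CPM, project P11355) stood apart from the other 4 wt libraries of its group (758 to 862 CPM) by a gap test within the group. Such a gap arises by chance in about 1 in 20 groups, and 9 groups were checked. The log2 difference between genotypes at P56 was -1.35 without this library and -1.41 with it.

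The genotype difference of Cd24a at P112 differed between SC and CN12 by -2.09 on the log2 scale (SE 0.42, adjusted p 0.0306 by edgeR's quasi-likelihood interaction test). Cd24a was higher in 3 of 3 mSOD CN12 libraries than in all wt CN12 libraries, and lower in 3 of 3 mSOD SC libraries than in 4 of 5 wt SC libraries.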

How the results depend on the processing

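Of 555 alternative values for 39 results on the 3 genes, 507 kept their direction and their side of the threshold. The 39 hold the 35 tested comparisons and the descriptions, which the choice of genes used or knew. Those were SC at P56 (16 of 16 values unchanged for Cd24a and Pitpnc1, 15 of 16 for Ppp1r1c) and Cd24a in CN3/4 minus SC (14 of 14). They raise the total and say nothing of the tested results. In SC at P56 (a description) all settings kept the direction of all 3 genes; Ppp1r1c ranged from -4.76 to -3.38 over the fits without 1 library. All values below are log2 differences, and the cause of a change was not tested unless the setting itself shows it (fewer libraries or genes).

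Without the low-count filter, Cd24a in CN12 at P112 was 1.35 and Ppp1r1c in CN3/4 minus SC 2.19, both then called, as was the difference of the Ppp1r1c genotype effect, SC minus CN3/4 (-3.17), while Pitpnc1 in CN10 minus SC (-0.75) was not. Without the project term, Cd24a in CN12 at P112 was 1.60 and called, Pitpnc1 in CN3/4 minus SC 0.059 and not called, and CN12 minus SC turned to -0.46 for Ppp1r1c and -0.69 for Pitpnc1. In DESeq2, Cd24a in CN12 at P112 (1.37) and Ppp1r1c in CN3/4 minus SC (2.22) were called. With the compared groups alone, these were 1.21 and 2.71 and called, while Cd24a for SC minus CN12 (-2.09) and Ppp1r1c in SC at P112 (-3.22) were not called. Within P10814, Ppp1r1c in CN3/4 minus SC was 2.703 and called; Cd24a in CN12 minus SC (-1.46), Cd24a for SC minus CN12 (-1.36) and Ppp1r1c in SC at P112 (-3.13) were not. Pitpnc1 there turned to 0.091 in SC at P112 and to 0.21, 0.23 and 0.24 for SC minus CN3/4, CN10 and CN12. Within P6362, Ppp1r1c in SC at P112 was -3.27 and not called. The lower bound of the fold of Ppp1r1c, SC over CN10 in wt at P112, was 15.5 and 10.2 to 19.0 without 1 library, and 3.90 within P10814; its CPM ratio in SC at P112, wt over mSOD, was 10.7 and 7.003 to 15.4 without 1 library. These settings were chosen after seeing the data.

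Leaving out 1 library in turn gave, for Cd24a, -0.015 to 0.56 in CN3/4 at P112, -0.30 to 0.25 in CN10 at P112, -1.93 to -1.25 for CN12 minus SC in wt and -2.40 to -1.72 for SC minus CN12. For Ppp1r1c it gave -0.45 to 0.13 in CN3/4 at P112, -3.59 to -2.83 in SC at P112 and 1.42 to 2.42 for CN3/4 minus SC. For Pitpnc1 it gave -0.015 to 0.049 in CN3/4 at P56, -0.27 to 0.044 in CN3/4 at P112, -0.15 to 0.081 in CN12 at P112 and -0.37 to 0.015 for SC minus CN3/4. The number of all genes called moved more: 100 in SC at P56 (17 to 141 without 1 library, 389 without the filter, 265 in DESeq2, 178 without the project term, 64 with these groups alone, 221 within P6362), 87 in SC at P112 (20 to 174, 265, 182 in DESeq2, 13 with these groups alone, 285 within P6362, 31 within P10814), 13 in CN12 at P112 (4 to 13, 83 without the filter, 29 in DESeq2, 57 with these groups alone), 119 for CN12 minus SC in wt (56 to 150, 369, 268 in DESeq2, 307 without the project term, 269 with these groups alone) 3 in CN10 at P56 (1 to 27, 79 without the filter, 17 in DESeq2, 0 with these groups alone, 2 without the project term), 1 in CN12 at P56 (0 to 13, 133 without the filter, 12 in DESeq2) and 9 for SC minus CN12 (0 to 43, 103 without the filter, 29 in DESeq2, 1 with these groups alone, 0 within P10814). For CN3/4 minus SC in wt, 952 became 1575 without the project term and 549 without SC wt replicate 2. For SC minus CN3/4, 1 became 105 without the filter, 25 in DESeq2, 2 without the project term, 3 within P10814, 0 with these groups alone and 1 to 28 without 1 library; for SC minus CN10, 0 became 106, 28, 2, 6 and 3, with 0 to 13. In CN3/4 at P56 and P112 and CN10 at P112, 0 became 41, 32 and 13 without the filter and 4 each in DESeq2; without 1 library CN3/4 reached 1 at each age. No paired analysis was possible because the labels carry no replicate numbers and do not tie libraries to animals. The replicate numbers used here follow the order in which the samples are listed. Equal numbers in different groups therefore do not mean the same animal.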
